A study of Xenopus laevis with 30 samples.

Results

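The globin genes and the 5-aminolevulinate synthases of the clawed frog Xenopus laevis were followed through embryonic and tadpole development. The probe sets were taken by gene symbol: every probe set whose single symbol in the platform annotation, without its L or S ending, was hba1, hba2, hba3, hba4, hbd, hbe1, hbg1, hbg2, alas1 or alas2. This gave 15 of the 32539 probe sets that are not controls, for 10 of the 9271 genes named by a single symbol, in 12 gene copies, of which 11 probe sets read globins and 4 read synthases. The endings L and S name the copies on the long and the short chromosome of each pair, since the X. laevis genome arose by joining of a pair of related genomes. The rule by symbol used no measured value, but its genes were chosen with earlier results of these data known. Probe sets can be bright for some copies and dim for others. Levels are therefore tested below only between stages of the same probe set, apart from a comparison of L and S copies. Where probe sets are set side by side, as ranks on an array, against the array median or as sums of markers, this is a description.

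Hemoglobin, the oxygen carrier of red blood cells, is built from alpha chains (the hba genes) and beta type chains (hbd, hbe1, hbg1 and hbg2), each holding a heme group whose iron binds oxygen. Heme is made in a chain of steps that starts in the mitochondrion, where 5-aminolevulinate synthase joins glycine and succinyl-CoA. In vertebrates alas1 serves most tissues and is known for its control by heme in the liver, whereas alas2 is the form of red cell precursors and its mRNA is controlled by iron. Frog embryos form their first red cells in the ventral blood island, from mesoderm set aside at gastrulation, and those cells enter the circulation in the tailbud embryo. Tadpoles and adult frogs use different globins, and the change takes place at metamorphosis, after the last stage measured here.

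Total RNA of wild-type whole embryos of mixed sex was hybridised to 30 Affymetrix arrays, 2 for each of 15 stages. The course runs from cleavage (stages 2 and 5) through the blastula (stage 9), the gastrula (11), the neurula (13, 17 and 19) and the tailbud embryo (21, 23, 26, 28 and 31) to the hatched embryo (37-38) and the tadpole (43 and 48). Each array holds the pooled RNA of several embryos, and per the labels the replicates of a stage are biological ones. A whole embryo was measured, so fewer cells of a type and less RNA per cell cannot be told apart.

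Signals are in arbitrary units, and each array had been scaled to the same trimmed mean, so a change is relative to the rest of the array. The median signal of an array lay between 105.6 and 184.1 units, and signals under it are poorly measured. Tests were run on the 23403 probe sets that exceeded the array median in both replicates of some stage. A stage counts as above the median where both its arrays are. A fold whose dimmer stage is not is given as "at least", with the arrays under the median raised to it, and none is given where neither stage is above it. Log2 signals of replicates correlated at 0.963 to 0.973 over the probe sets, and all 30 arrays were closest to their own replicate. The number of arrays, 2 per stage, limits the precision.

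Of the 15 probe sets, 11 were bright enough to be tested, 7 for globins and 4 for synthases. The tested globins were dark in the early embryo, came above the array median at different stages between 13 and 43, and were brightest at stage 48 in all 7 tested probe sets. Before stage 26 only hba3.L and hba4.S were above it, both read by probe sets that can also bind other transcripts. Both alas2 copies came above the median at stage 37-38. Both alas1 copies were above it on all 30 arrays, with their lowest mean at stage 13. The F test over the 15 stages of the limma fit passed for 11 of 11, against 99.8% of all probe sets tested, and most of the globin and alas2 probe sets entered the test only through their late stages, so this count says nothing particular about them.

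The alpha globins of the L copies hba3 and hba2 and of the S copy hba4 give the longest records. The hba3.L probe set had 3.1 to 11.8 units on the 8 arrays of stages 2 to 11. It then had 129 and 179 units at stage 13, 88.7 and 75.3 at stage 17, 166 and 200 at stage 19 and 198 and 212 at stage 21. It went on with 393 and 206 units at stage 23, 667 and 647 at stage 26, 1963 and 1645 at stage 28 and 4350 and 2768 at stage 31. In the oldest embryos it had 11205 and 10758 units at stage 37-38, 15905 and 15331 at stage 43 and 20617 and 21981 at stage 48. Stage 13 was the first stage with both arrays above the median, stage 17 lay under it again, and from stage 26 on the arrays of a stage did not overlap with those of its neighbours.

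For hba4.S the signals were 2.56 to 19.9 units through stage 11, 114 and 121 at stage 13, 121 and 114 at stage 17, 167 and 165 at stage 19 and 245 and 238 at stage 21. They were 498 and 389 units at stage 23, 795 and 740 at stage 26, 2511 and 2091 at stage 28 and 4353 and 3225 at stage 31. At the last stages they were 10183 and 10124 units (37-38), 14762 and 14515 (43) and 17499 and 18544 (48). Both arrays of this probe set were above the median from stage 19 on. Its course had a Pearson correlation of 0.994 with that of hba3.L over the 15 log2 stage means, a description only. Both probe sets carry the ending _x_at, which marks probes that can also bind other transcripts. They may thus read in part the same near-identical globin RNAs and are not independent. Counts of probe sets in this text still hold each of them separately, and each tested probe set of hbg2.L as well.

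The third alpha globin, hba2.L, had 1.21 to 22 units through stage 26. Its signals were then 294 and 179 units at stage 28, 1239 and 642 at stage 31, 9424 and 8577 at stage 37-38, 14709 and 14213 at stage 43 and 18604 and 20158 at stage 48. It was thus under the median at stages 19 to 26, where hba3.L and hba4.S were above it on both arrays. In the gene order of the RefSeq assembly v10.1 hba2.L and hba3.L lie next to each other. The sensitivity of each probe set also decides when it passes the median, and its part in the order of appearance was not tested.

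Of the beta type globins, hbd.S was the earliest. It had 1.26 to 32.8 units through stage 21, 158 and 94.7 at stage 23, 351 and 336 at stage 26, 2099 and 1513 at stage 28 and 3622 and 2622 at stage 31. Later it had 9904 and 10091 units at stage 37-38, 14782 and 13962 at stage 43 and 20080 and 22005 at stage 48. At stage 23 replicate 1 was above its array's median and replicate 2 was not, and from stage 26 on both were.

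The hbe1.L probe set had 2.11 to 29 units through stage 26, 469 and 319 at stage 28, 1470 and 806 at stage 31, 7544 and 7062 at stage 37-38, 12696 and 12397 at stage 43 and 12481 and 15752 at stage 48. Its arrays of stages 43 and 48 overlapped, which those of hba2.L, hba3.L, hba4.S and hbd.S did not.

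**Figure D1:**
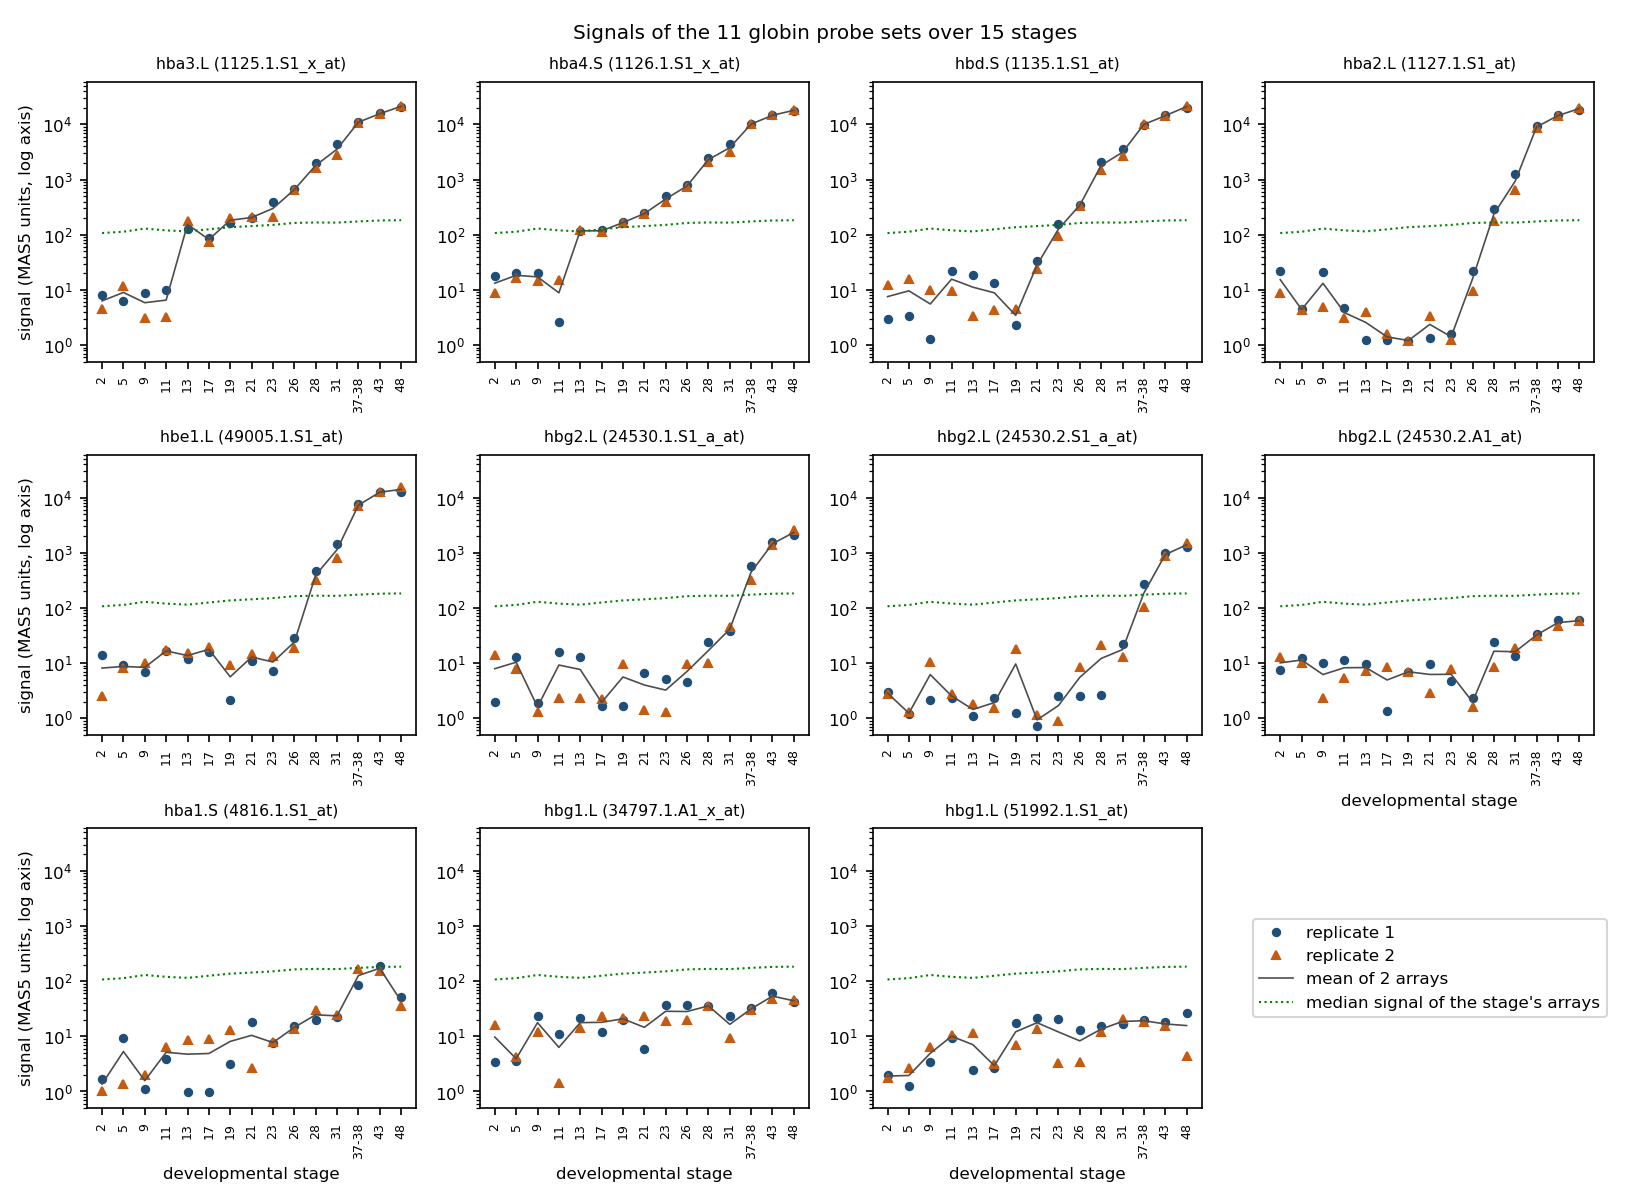
Signal (arbitrary units, log axis) of the 11 globin probe sets at the 15 stages, with circles for replicate 1, triangles for replicate 2, a line through the stage means and a dotted line for the median signal of the arrays of each stage. The probe sets of hba3.L and hba4.S, both ending in _x_at, leave the dark range at stage 13, and those of hba2.L and hbe1.L at stage 28. That of hba1.S passes the median on 1 of 30 arrays, and those of hbg1.L stay under it.

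The hbg2.L gene, also of the beta type, was read by 3 probe sets. Of these, Xl2.24530.1.S1_a_at had 38.1 and 44.3 units at stage 31, 577 and 318 at stage 37-38, 1557 and 1360 at stage 43 and 2138 and 2544 at stage 48. The probe set Xl2.24530.2.S1_a_at had 22.5 and 12.6 units at stage 31, 268 and 104 at stage 37-38, 982 and 866 at stage 43 and 1278 and 1517 at stage 48. Both came up after the other tested globins and still had the same order of stages. The remaining one, Xl2.24530.2.A1_at, never went above 60.4 units and was not tested. The ending _a_at marks probes shared by transcripts of 1 gene.

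Of the globins that were not tested, hba1.S, an alpha globin, had 86.5 and 166 units at stage 37-38, 190 and 153 at stage 43 and 51.1 and 35.7 at stage 48. It passed the median on 1 of 30 arrays, and a level under the median gives no reliable order, so its lower value at stage 48 is a description. The beta type globin hbg1.L was read by 2 probe sets, with at most 60 and 27 units on any array. In the gene order of the assembly, hba1.S lies next to hba4.S on the S chromosome, and hbg1.L lies next to hba1.L, which lies on the far side of hbz.L from hba3.L. The sensitivity of these dim probe sets is unknown.

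Between stage 31 and stage 21, 10 of the 11 tested probe sets were called higher and 0 lower (limma, adjusted p under 0.05, with 0 lower also at an unadjusted p under 0.05), against 26.9% of all tested probe sets called higher and 25.4% called lower. The hbd.S probe set had passed the filter only from stage 26 on, and those of hba2.L and hbe1.L only from stage 28 on. Both hbg2.L and both alas2 probe sets had passed it only through stages 37-38 to 48. The filter thus favoured a low level at stage 21 for all of these, and the count is no support. All 7 globin probe sets were among the 10 called, with both hbg2.L probe sets at signals under the median. With 50 units added to each signal before the logarithm 6 of 7 were called, against 31.3% of all tested probe sets, and the call of Xl2.24530.2.S1_a_at was lost (adjusted p = 0.0976). The largest measured fold was that of hba3.L, with a mean of 16.9 times its stage 21 signal (log2 change 4.08 ± 0.50 SE, adjusted p = 2.5e-06, n = 2 arrays per stage, limma fit). For hba4.S the fold was 15.5 (log2 change 3.96 ± 0.51, limma adjusted p = 4.61e-06). The genes that were dark at stage 21 have a lower bound only: hbd.S was at least 21.5-fold higher, hbe1.L at least 7.59-fold and hba2.L at least 6.22-fold, with limma adjusted p of 1.47e-05, 7.45e-08 and 1.46e-09. For hbg2.L both stages were under the median, and no fold is given.

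Between stage 48 and stage 31, 11 of the 11 tested probe sets, 7 of globins and 4 of alas1 and alas2, were called higher and 0 lower (0 lower also at an unadjusted p under 0.05 in the limma fit), against 29.7% and 39.7% of all tested probe sets. Both hbg2.L and both alas2 probe sets had passed the filter only through stages 37-38 to 48, so the filter favoured a higher level at stage 48 for these 4 and the count is no support. The fold was 21.7 for hba2.L, 12.9 for hbe1.L, 6.82 for hbd.S, 6.13 for hba3.L and 4.81 for hba4.S. In log2 units these are 4.44 ± 0.66, 3.69 ± 0.63, 2.77 ± 0.96, 2.62 ± 0.50 and 2.27 ± 0.51 (SE, n = 2 arrays per stage). The limma adjusted p were 5.47e-06, 3.32e-05, 0.0167, 0.000155 and 0.000718 in the same order. The hbg2.L probe sets were at least 14.1-fold and at least 8.4-fold higher, with limma adjusted p of 0.000102 and 4.44e-05. The call of hbd.S was lost when stage 31 replicate 2 (limma adjusted p = 0.079), stage 48 replicate 1 (0.052) or stage 48 replicate 2 (0.063) was left out.

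Set against their own stage 48 levels, the globins differed in how much of the signal was reached early, which is a description with no test between genes. At stage 28 hba4.S had 12.7% of its geometric mean of stage 48, hbd.S 8.48%, hba3.L 8.44%, hbe1.L 2.76% and hba2.L 1.19%. At stage 31 the shares were 20.8% for hba4.S, 16.3% for hba3.L, 14.7% for hbd.S, 7.77% for hbe1.L and 4.6% for hba2.L. By stage 37-38 these 5 lay close together, between 46.4% (hba2.L) and 56.4% (hba4.S), while the hbg2.L probe set Xl2.24530.1.S1_a_at had 18.4%. At stage 43 the 5 had 68.3% (hbd.S) to 89.5% (hbe1.L) and hbg2.L 62.4% and 66.2%. Thus hbe1.L and hba2.L, above the median from stage 28 on, had the smallest shares of the 5 at stages 28 and 31. By stage 37-38 they lay near the others, while hbg2.L did not. At stage 48 only 33 (hba3.L) to 249 (hbe1.L) probe sets were brighter than these 5. Whether the top of the signal range limits such values was not tested.

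**Figure D2:**
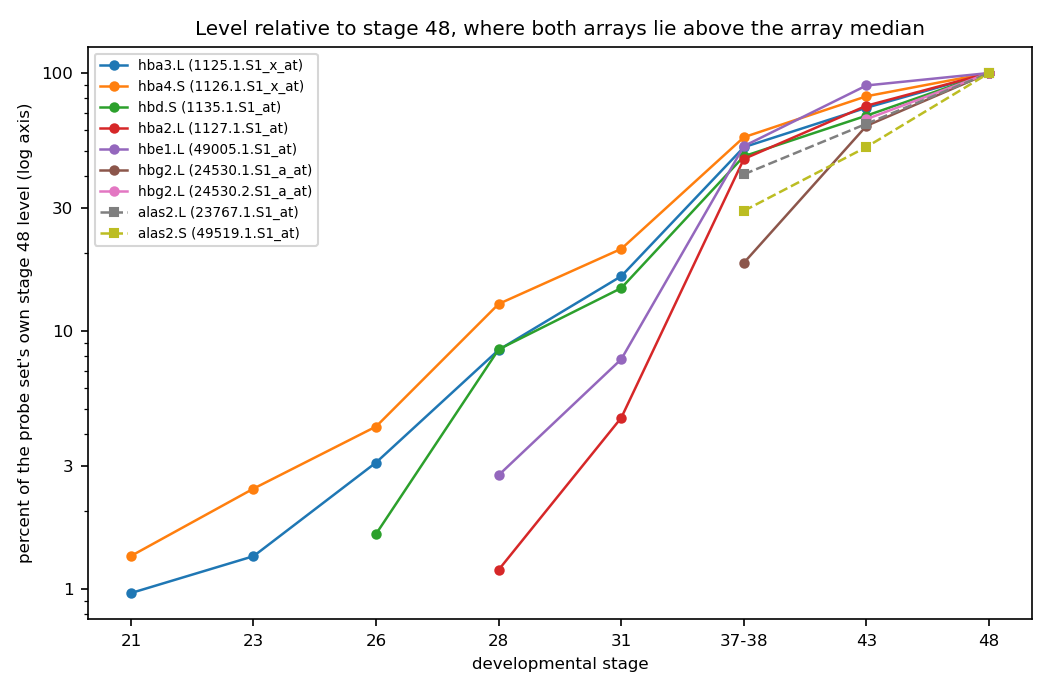
Geometric mean signal at stages 21 to 48 as percent of the same probe set's geometric mean at stage 48 (log axis), shown where both arrays of a stage lay above their median. At stage 31 hba4.S, hba3.L and hbd.S stand at 14.7% to 20.8%, hbe1.L and hba2.L at 7.77% and 4.6%, and by stage 37-38 the 5 lie between 46.4% and 56.4%.

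The 14 steps between neighbouring stages place the changes more closely. Over all steps 34 calls higher and 7 lower fell on the 11 tested probe sets. Of the tests of all probe sets over these steps 17% were called higher. The step to stage 5 had 1 member call higher (18.3% of all tested probe sets) and 0 lower (13.7%). Calls higher numbered 1 in the step to stage 9 (20.4% of all tested probe sets were called higher there), 0 to stage 11 (28.8%), 2 to stage 13 (31.1%), 0 to stage 17 (20.5%), 1 to stage 19 (19.3%), 3 to stage 21 (9.43%) and 1 to stage 23 (10.1%). They numbered 2 in the step to stage 26 (18.3%), 5 to stage 28 (11.3%), 4 to stage 31 (9.96%), 8 to stage 37-38 (11.8%), 3 to stage 43 (11.5%) and 3 to stage 48 (17.1%). Of the globins and alas2, 4 probe sets passed the filter only through stages 37-38 to 48. The hba2.L and hbe1.L probe sets passed it only through stages 28 to 48, and hbd.S only through stages 26 to 48. The place of calls from stage 26 on is thus in part set by the filter. Calls lower came to 1 in the step to stage 9 (18.4% of all), 2 to stage 11 (31.5%), 2 to stage 13 (37.1%), 1 to stage 19 (12.9%) and 1 to stage 28 (12.2%). In the other steps 0 were lower, against 16% of all to stage 17, 7.93% to stage 21, 9.54% to stage 23, 13.3% to stage 26, 11.5% to stage 31, 16.2% to stage 37-38, 19% to stage 43 and 29% to stage 48. At an unadjusted p under 0.05 in the same limma fit the steps with 0 calls gave 1 higher to stage 11 and 1 to stage 17, and of those with 0 lower the steps to stages 5 and 21 gave 1 each.

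In the step from stage 11 to stage 13, hba3.L and hba4.S were called higher (log2 change 4.76 ± 0.50 and 4.24 ± 0.51, limma adjusted p = 1.75e-07 and 9.78e-07). The bound for hba3.L was at least 1.27-fold, and hba4.S was above the median on 1 of its 2 arrays of stage 13. In the step to stage 28, 4 of the 7 globin probe sets were called higher, against 11.3% of all tested probe sets. These were hba3.L at 2.73-fold, hba4.S at 2.99-fold, hba2.L at least 1.4-fold and hbe1.L at least 2.37-fold. For hba2.L and hbe1.L stage 28 was the first that let them through the filter, so their calls here are no support. The hbd.S probe set had the largest measured fold of this step, 5.2, and was not called (log2 change 2.38 ± 0.96, limma adjusted p = 0.086). The step from stage 31 to stage 37-38 brought 6 of 7, against 11.8% of all. These include both hbg2.L probe sets. Of these, Xl2.24530.1.S1_a_at was first above the median at stage 37-38, and Xl2.24530.2.S1_a_at was above it at neither stage. Both had passed the filter only through stages 37-38 to 48, so their calls here are no support. Folds were 10.1 for hba2.L, 6.7 for hbe1.L, 3.16 for hba3.L and 2.71 for hba4.S, while hbd.S at 3.24-fold was not called (1.70 ± 0.96, limma adjusted p = 0.211). In the steps to stages 43 and 48 0 of the 7 were called (limma, adjusted p under 0.05), against 11.5% and 17.1% of all called higher. At an unadjusted p under 0.05 in the same fit 1 and 0 of the 7 passed.

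The spread used for a probe set pools all 15 stages, and it includes the dark stages, in which log2 values scatter. With 50 units added to each signal before the logarithm, that scatter is damped. Called higher were then 7 of 7 globin probe sets in the step to stage 43 and 4 of 7 in the step to stage 48. Of all tested probe sets 19.2% and 26.1% were called higher with the same setting. The hbg2.L probe set Xl2.24530.2.S1_a_at passed the filter only through stages 43 and 48, so its call to stage 43 is no support. Calls higher on the members over the 14 steps then came to 61, and those on all probe sets to 21.1% of the tests, against 17% without the added units. The count of 0 at the last steps therefore depends on how dim signals are treated.

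**Figure D3:**
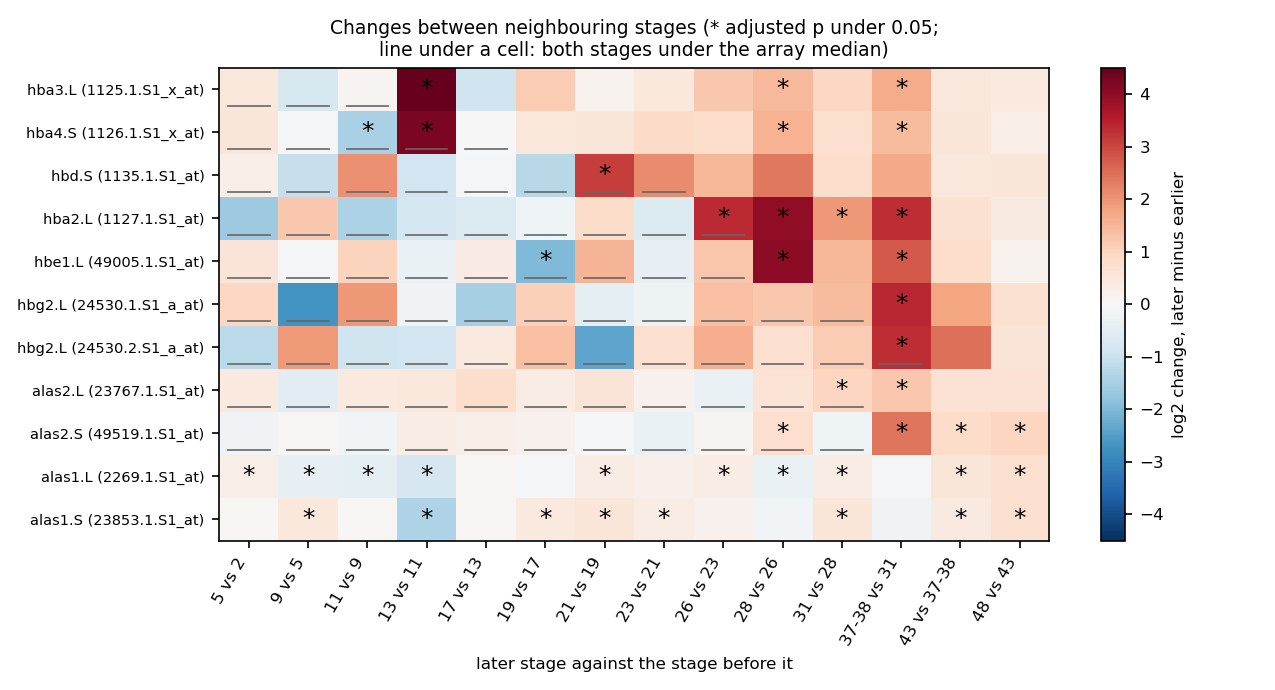
Log2 change of each tested probe set in the 14 steps between neighbouring stages (colour), with a star for a limma adjusted p under 0.05 and a line under a cell where both stages lay under the median. Stars on globins gather in the steps to stages 28 and 37-38, in part through the filter. With 50 units added to each signal, 5, 5, 7, 7 and 4 of the 7 were called higher in the steps to stages 28, 31, 37-38, 43 and 48. Stars of alas1 lie in the steps to stages 5 to 13 (lower, except alas1.L at stage 5 and alas1.S at stage 9). Others of alas1 lie from stage 19 on (higher, except alas1.L at stage 28).

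At stage 31 replicate 1 was above replicate 2 in each of the 5 bright globins, by 1.93-fold in hba2.L, 1.82-fold in hbe1.L, 1.57-fold in hba3.L, 1.38-fold in hbd.S and 1.35-fold in hba4.S. The alas1 probe sets had 606 and 679 units (L) and 1345 and 1333 units (S) on the same arrays. Summed liver markers, listed below, were also higher in replicate 1, with 25816 units, against 20736 in replicate 2. Of the single liver markers, f2 and hnf4a went the other way. What set the replicates of this stage apart was not tested.

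Both copies of alas2, the synthase of red cell precursors, came above the median late. The alas2.L probe set had 6.81 to 65.3 units through stage 28, then 144 and 107 at stage 31, 274 and 297 at stage 37-38, 487 and 413 at stage 43 and 673 and 739 at stage 48. The alas2.S probe set had 31.1 to 112 units through stage 31, then 388 and 409 at stage 37-38, 772 and 643 at stage 43 and 1238 and 1502 at stage 48. Both were above the median at the last 3 stages only, and the arrays of these stages did not overlap with one another. At signals under the median, alas2.L was called higher at stage 21 than at stage 11 (log2 change 2.18 ± 0.32, limma adjusted p = 3.87e-06). It was also called higher at stage 31 than at stage 21 (1.51 ± 0.32, 0.000586). For alas2.S the first of these changes was called (0.72 ± 0.24, 0.0115). The filter favoured low early levels, so these calls are no support. At stage 48 alas2.S was at least 8.23-fold higher than at stage 31 (log2 change 4.19 ± 0.24, limma adjusted p = 4.48e-12) and alas2.L at least 4.25-fold (2.51 ± 0.32, 8.31e-07). Both copies had passed the filter only through stages 37-38 to 48, so the calls at stage 48 are no support either.

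Of their stage 48 level, alas2.L had 40.5% and alas2.S 29.2% at stage 37-38, and 63.6% and 51.7% at stage 43. The last steps were called for alas2.S, at 1.77-fold to stage 43 and 1.94-fold to stage 48 (limma adjusted p = 0.0142 and 0.00302). For alas2.L they were 1.57-fold each and not called (limma adjusted p = 0.141 and 0.108). At stages 28 and 31, where 5 globins stood above the array median, neither alas2 copy was above it on both arrays. Between stage 31 and stage 21 alas2.S was the tested probe set that was not called (log2 change 0.42 ± 0.24, limma adjusted p = 0.154).

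The alas1 copies, by contrast, were read throughout. The alas1.L probe set had 804 and 833 units at stage 2, 993 and 1012 at stage 5, 837 and 736 at stage 9, 606 and 553 at stage 11 and 343 and 349 at stage 13. In the middle of the course it had 379 and 358 units at stage 17, 328 and 366 at stage 19, 469 and 400 at stage 21, 480 and 527 at stage 23 and 659 and 607 at stage 26. It had 530 and 494 units at stage 28, 606 and 679 at stage 31, 665 and 581 at stage 37-38, 900 and 924 at stage 43 and 1455 and 1541 at stage 48. By its means, the level of the cleaving embryo, which lives on RNA of the egg, was passed again in the tadpole. That of stage 2 was passed at stage 43, by 0.16 in log2 units, and that of stage 5 at stage 48, by 0.58. Neither difference was tested. The stages of passing depend on the scaling. Set to the added poly-A control RNA in place of the trimmed mean, alas1.L was above its stage 2 level from stage 26 on. At stage 26 it was above by 0.48 in log2 units. It was above its stage 5 level from stage 31 on (0.47), after 0.07 at stage 26 and -0.05 at stage 28.

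For alas1.S the signals were 570 and 573 units at stage 2, 523 and 684 at stage 5, 837 and 814 at stage 9, 872 and 859 at stage 11 and 337 and 331 at stage 13. They were 342 and 347 units at stage 17, 435 and 504 at stage 19, 717 and 658 at stage 21, 856 and 870 at stage 23 and 1011 and 953 at stage 26. Then came 822 and 1004 units at stage 28, 1345 and 1333 at stage 31, 1172 and 1235 at stage 37-38, 1590 and 1596 at stage 43 and 2586 and 2706 at stage 48. Among stages 2 to 11 the S copy thus had its highest mean at stage 11, where the L copy was already below its stage 9 values. The step of alas1.S from stage 9 to stage 11 was not called (log2 change 0.07, limma adjusted p = 0.582). With poly-A scaling alas1.S stood 0.61 above its stage 2 level in log2 units at stage 9 and 0.42 at stage 11.

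Between stage 11 and stage 5 alas1.S was called higher at 1.45-fold (log2 change 0.53 ± 0.10, limma adjusted p = 8.69e-05) and alas1.L lower at 1.73-fold (-0.79 ± 0.09, 2.47e-07). Over all tested members this interval had 1 call higher and 2 lower, against 33% and 34% of all probe sets, and the other lower call was hba4.S at signals under the median. With the poly-A scaling the call of alas1.S was lost (log2 change 0.24, adjusted p = 0.22). That scaling moves the median of all probe sets by itself, to -0.33 in log2 units in this interval, against -0.03 with the trimmed mean.

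In the difference of the copies a single scaling factor per array cancels. The log2 signal of S minus that of L, whose own level has no meaning between different probe sets, was 0.58 at stage 11 and -0.75 at stage 5. The change of 1.33 ± 0.13 (SE) had a limma adjusted p of 8.61e-08 over the 1722 genes with both copies tested, of which 58.5% were called in this interval. At stage 31 the difference was 1.06, against 0.66 at stage 21, a change of 0.40 ± 0.13 (limma adjusted p = 0.0233, with 32.4% of genes called). Of the other intervals, those from stage 2 to 5, 11 to 21 and 31 to 48 gave no call for alas1, with 31.4%, 67.2% and 50.9% of the genes called. Quantile normalization, which is no single factor, gave changes of 1.24 between stages 5 and 11 and 0.44 between 21 and 31 (adjusted p = 3.62e-07 and 0.0175), and a call between stages 31 and 48 (-0.37, adjusted p = 0.0253, against -0.24 and 0.127). The call between stages 21 and 31 was lost without stage 21 replicate 1 (adjusted p = 0.137) or stage 31 replicate 1 (0.174). This comparison of copies was chosen after the values were seen.

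Between stage 13 and stage 11 both alas1 copies were called lower, alas1.S at 2.59-fold (log2 change -1.37 ± 0.10, limma adjusted p = 2.54e-10) and alas1.L at 1.67-fold (-0.74 ± 0.09, 7.3e-07). At stage 21 both were still lower than at stage 11, by 0.42 (alas1.L) and 0.33 (alas1.S) in log2 units, and this direction turned to 0.39 and 0.47 higher (adjusted p = 0.037 and 0.013) with scaling to the poly-A controls, which moved the median of all probe sets to 0.79. The interval held 4 member calls higher and 2 lower, against 39.7% and 39.9% of all.

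Both copies were higher again late in the course. At stage 31 alas1.S was called 1.95-fold higher than at stage 21 and alas1.L 1.48-fold (log2 change 0.96 ± 0.10 and 0.57 ± 0.09, limma adjusted p = 1.17e-07 and 4.32e-05). At stage 48 the fold over stage 31 was 2.33 for alas1.L and 1.98 for alas1.S (log2 change 1.22 ± 0.09 and 0.98 ± 0.10, limma adjusted p = 3.86e-10 and 2.87e-08). Between stage 5 and stage 2 alas1.L was called higher at 1.22-fold (limma adjusted p = 0.0223), 1 member call against 18.3% of all, and 0 were called lower, against 13.7% (1 at an unadjusted p under 0.05). That call was lost under 9 of the settings tried.

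**Figure D4:**
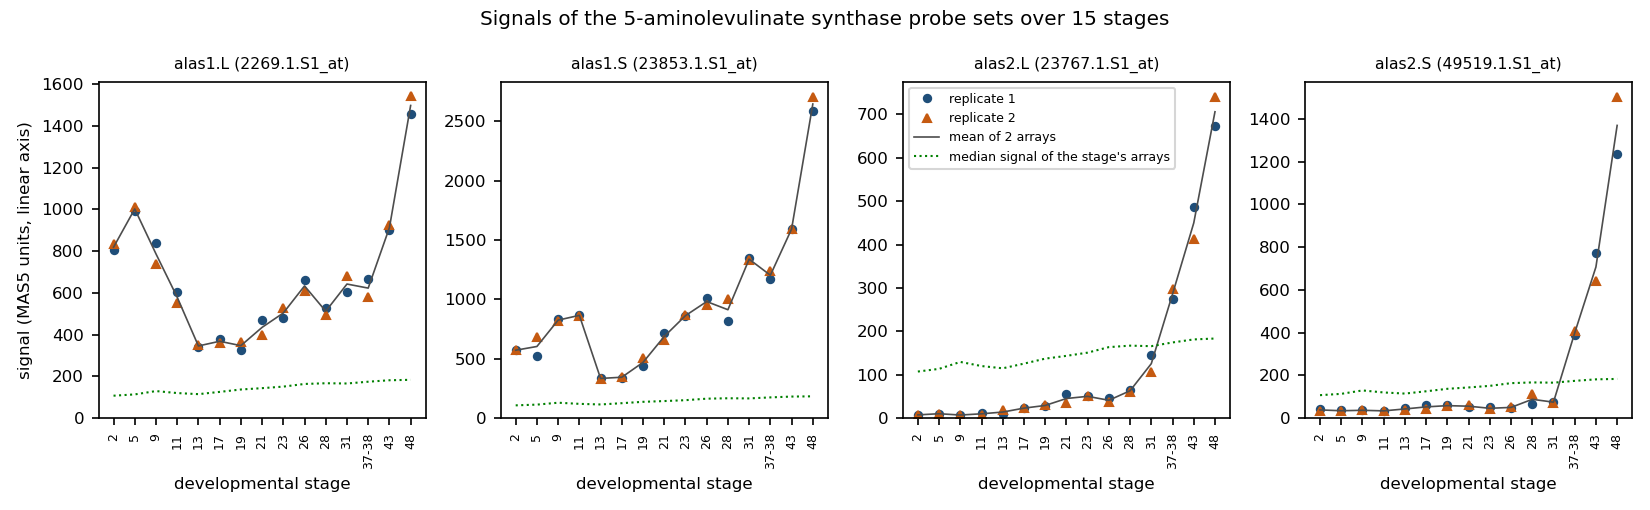
Signal (arbitrary units, linear axis from 0) of the alas1 and alas2 probe sets at the 15 stages, with circles for replicate 1, triangles for replicate 2, a line through the stage means and a dotted line for the median signal of the arrays. The alas1 copies dip at stage 13, the S copy after 872 and 859 units at stage 11 and the L copy from stage 9 on, and both alas2 copies pass the median from stage 37-38.

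Of the 7 later enzymes of heme synthesis 5 were tested. At stage 31, 4 of them were higher than at stage 21 and 1 was lower (median log2 change 0.486, against 0.0361 over the 8088 tested genes, of which 32.5% were called higher and 28.2% lower). At stage 48, 2 were higher than at stage 31 and 3 lower (median -0.228, against -0.195, with 30.5% of genes higher and 45.2% lower). Scaling changed these counts: at stage 31, 2 were higher and 1 lower with median centring, 3 and 1 with quantile normalization and 4 and 0 with poly-A scaling, and at stage 48, quantile normalization gave 2 and 2, and scaling to the poly-A controls 2 and 1. The urod gene, whose enzyme takes the carboxyl groups off the side chains of the ring, averaged 1295 units at stage 31 and 382 at stage 21, a fold of 3.41. At stage 48 it averaged 1110.1 units, 1.17-fold lower than at stage 31, and this direction turned (log2 change 0.15, adjusted p = 0.50) with scaling to the poly-A controls. The lower gene at stage 31, uros, lay under the median at both stages.

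The alad gene encodes the enzyme that joins aminolevulinate molecules, and averaged 1296 units at stage 31 and 925 at stage 21 (1.4-fold), and 852 at stage 48, a change that was called lower. The first call was lost with median centring (log2 change 0.28, adjusted p = 0.0904) and the second with poly-A scaling (-0.23, adjusted p = 0.272). The ppox gene, for the oxidation that precedes iron insertion, averaged 728 units at stage 31 and 428 at stage 21, and 903 at stage 48, higher at both. The fech gene encodes ferrochelatase, which puts iron into the ring. It averaged 236 units at stage 31, at least 1.36-fold higher than at stage 21, where it averaged 174 units with 1 of 2 arrays under the median, a call that was lost with quantile normalization (log2 change 0.32, adjusted p = 0.144) and with median centring (0.26, adjusted p = 0.202), and at stage 48 it lay under the median with 51.6 units, at least 1.28-fold lower than at stage 31. The list holds hmbs and cpox as well, which are named by no probe set used here.

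Genes for carrying heme precursors and iron in the mitochondrion had 4 of 5 tested members higher at stage 31, with slc25a28 not called (median log2 change 0.551), and 2 higher and 3 lower at stage 48 (median -0.211), or 2 and 0 with poly-A scaling. At stage 31, 3 were higher with median centring and 5 with quantile normalization and with poly-A scaling. Over all tested genes 32.5% were higher and 28.2% lower at stage 31, and 30.5% and 45.2% at stage 48. The clpx gene, whose product is known in yeast and mammals to act on aminolevulinate synthase, was 2.24-fold higher at stage 31 (713 units, against 320 at stage 21) and 1.38-fold lower at stage 48 (518 units), a call that was lost with poly-A scaling (log2 change -0.09, adjusted p = 0.65). The mitochondrial carrier gene slc25a39 was higher in both intervals, with 847 units at stage 31, against 494 at stage 21, and 1609 at stage 48. The gene tmem14c, known in the mouse for porphyrin transport in red cell precursors, averaged 3591 units at stage 31, against 2450 at stage 21, and 3103 at stage 48, a fall of 1.16-fold that turned to a log2 change of 0.17 (adjusted p = 0.276) with scaling to the poly-A controls.

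In the list of iron supply and erythropoietin signalling 5 of 6 tested genes were higher at stage 31, with tf not called (median log2 change 1.15), and 4 were higher at stage 48, with ireb2 and stat5b not called (median 1.24). With median centring and with quantile normalization 4 were higher at stage 31, and with poly-A scaling 5 at stage 48. All tested genes had 32.5% higher and 28.2% lower at stage 31, and 30.5% and 45.2% at stage 48. The slc40a1 gene, for the iron exporter ferroportin, averaged 2154 units at stage 31, at least 14.8-fold higher than at stage 21, and 7497 at stage 48. The aco1 gene, whose product binds iron-responsive elements in mRNA, averaged 1261 units at stage 31 and 352 at stage 21, and 3187 at stage 48. The transferrin gene tf averaged 11329 units at stage 48, 28.4 times the 400 units of stage 31. The gene jak2, the kinase of the erythropoietin receptor and of other receptors, was 2.22-fold higher at stage 48, while epor itself never went above 155 units and was not tested.

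Among genes for breaking down or binding heme 6 of 9 were higher and 2 lower at stage 31 (median log2 change 0.595), and 5 higher and 4 lower at stage 48 (median 0.22). With poly-A scaling these were 7 and 0 at stage 31 and 5 and 1 at stage 48. At stage 31 they were 5 and 2 with median centring and 4 and 2 with quantile normalization, and at stage 48, 4 and 4 with each. The shares of all tested genes were 32.5% higher and 28.2% lower at stage 31, and 30.5% and 45.2% at stage 48. The hmox1 gene, for the oxygenase that opens the heme ring, averaged 1013 units at stage 48, 3.09-fold lower than the 3129 units of stage 31. At stage 31 it was 1.4-fold lower than at stage 21, a direction that turned (log2 change 0.11, adjusted p = 0.578) with scaling to the poly-A controls. The biliverdin reductase gene blvrb averaged 1902 units at stage 31, 2.35-fold higher than at stage 21. The heme binding gene hebp1 was 3.43-fold higher at stage 31 and 1.57-fold lower at stage 48, where the call was lost with poly-A scaling (log2 change -0.27, adjusted p = 0.161), and abcg2, for an exporter known to carry porphyrins in mammals, was 6.21-fold higher at stage 48. Of other globins, cygb (cytoglobin) averaged 882 units at stage 48, at least 5.32-fold higher than at stage 31.

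Of the transcription factors of red cell formation 7 were tested, and 1 was higher and 4 were lower at stage 31 against stage 21 (median log2 change -0.384), or 1 and 2 with scaling to the poly-A controls, while 3 were higher and 2 lower at stage 48 against stage 31 (median -0.163), or 3 and 0 with that scaling. Median centring gave 1 and 5 at stage 31 and 2 and 3 at stage 48. Quantile normalization gave 1 and 5, and then 3 and 1. Among all tested genes 32.5% were higher and 28.2% lower at stage 31, and 30.5% and 45.2% at stage 48. The gata2 gene, known for its role in blood progenitors, had its highest mean at stage 13 with 4031 units and averaged 262 at stage 31, 3.18-fold below the 824 units of stage 21. The genes lmo2 and tal1, partners in a complex that acts in blood and vessel precursors, had their highest means at stage 26, 3797 and 1804 units. At stage 31 lmo2 averaged 1418 units, 2.42-fold lower than at stage 21, and tal1 averaged 1036 and 1104 units at stages 31 and 21 (adjusted p = 0.887). The factor that was higher at stage 31, bcl11a, a known repressor of fetal globin in humans, lay under the median at both stages and was at least 2.64-fold higher at stage 48. The red cell factors gata1 and gfi1b never went above 102 and 120.0 units and were not tested, and klf1 is named by no probe set used here.

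Of the genes of the red cell membrane 2 were higher and 1 lower at stage 31 among 6 tested (median log2 change 0.822), and 3 higher and 1 lower at stage 48 (median 0.417), or 3 and 0 and then 4 and 0 with poly-A scaling. Median centring gave 2 higher and 2 lower at stage 31. Shares over all tested genes were 32.5% higher and 28.2% lower at stage 31, and 30.5% and 45.2% at stage 48. The ankyrin gene ank1 averaged 1333 units at stage 31, 2.16-fold higher than at stage 21. The anion exchanger gene slc4a1 averaged 761 units at stage 48, 1.46-fold higher than the 512 units of stage 31. At stage 31 it was 1.34-fold lower than at stage 21, which turned to a log2 change of 0.18 (adjusted p = 0.53) with scaling to the poly-A controls. It also had 887 units at stage 2, before red cells form. The rhag gene stayed under 132 units and was not tested. Of the 16 red cell markers 8 were tested, 6 globin genes, alas2 and slc4a1, all described above.

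**Figure D5:**
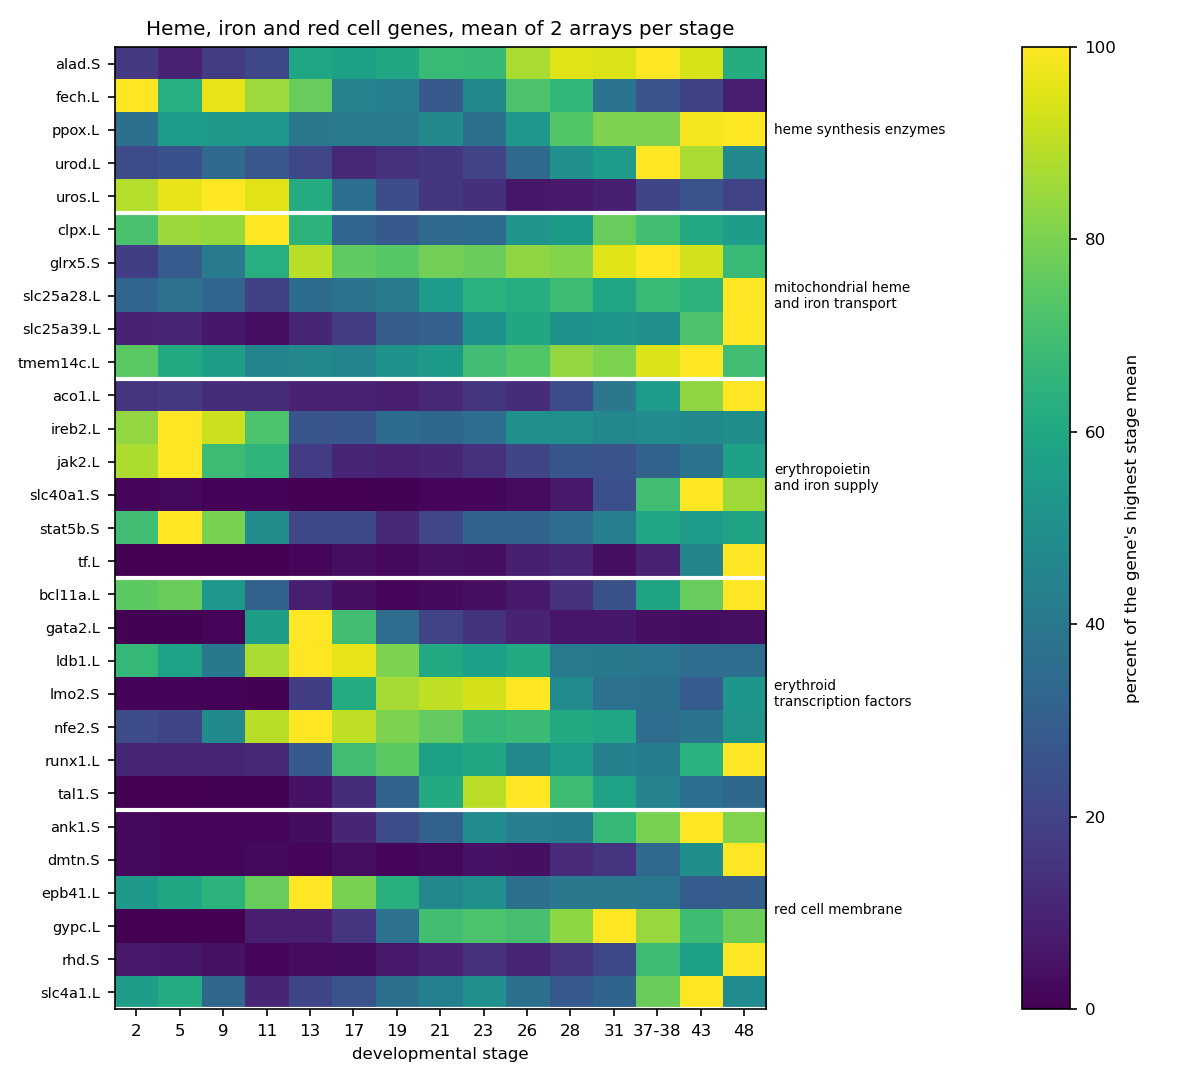
Mean signal at the 15 stages as percent of each gene's highest stage mean (colour) for the tested genes of 5 lists, with the genes of a list in adjacent rows. Genes for iron supply such as slc40a1, aco1 and tf stand highest at stages 43 and 48, whereas lmo2 and tal1 stand highest at stage 26 and gata2 at stage 13.

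Markers of other tissues took courses of their own. Beside the counts that follow, 32.5% of all tested genes were higher and 28.2% lower at stage 31, and 30.5% and 45.2% at stage 48. Of 12 tested liver markers 11 were higher at stage 31 and 8 at stage 48, with the others not called, with median log2 changes of 4.85 and 2.09. At stage 48, 7 were higher and 1 lower with median centring. The genes apob, fga, fgb, vtn, fgg, ttr and apoa1 were under the median on both arrays of stage 21. The filter favoured a low level there for such genes, so the count at stage 31 is no support. The median of 4.85 rests in part on dark signals. The same limit holds for genes of other lists that were dark at the earlier stage. The summed signal of the liver markers was 1674 to 2136 units at stage 21, 20736 to 25816 at stage 31, 78790 to 80908 at stage 37-38, 97659 to 101957 at stage 43 and 73930 to 74597 at stage 48. The liver sum thus went up with the globins to stage 43 and was lower at stage 48, where the tested globins had their highest means. Of 6 myeloid markers 2 were higher and 1 lower at stage 31, and 2 were lower at stage 48 with the others not called, whereas 3 were higher at stage 48 and the others not called with poly-A scaling. With quantile normalization 1 of the myeloid markers was higher and 2 were lower at stage 48. Their sum was 1702 to 1775 units at stage 21, 3142 to 3166 at stage 31, 3148 to 3242 at stage 43 and 4055 to 4290 at stage 48. Of 9 endothelial markers 4 were higher and 2 lower at stage 31 and 4 higher and 4 lower at stage 48, or 5 and 0 and then 4 and 1 with poly-A scaling. Median centring gave 3 and 2 and then 3 and 4 of the endothelial markers, and quantile normalization 3 and 1 and then 4 and 4. Their sum was highest at stage 11, with 4984 to 5068 units, and was 2706 to 2726 at stage 21, 2911 to 3055 at stage 31 and 3428 to 3609 at stage 48. At stage 21 aplnr alone gave 1366 and 1394 units of it, so this sum may not follow the tissue. The part of these tissues in the course of the globins, alas1, alas2 and the iron genes was not tested.

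By Pearson correlation of log2 means over the 15 stages, which neighbouring stages share in part, the nearest to hba3.L were ndufb5.L (0.987), col1a2.L (0.985), atp5po.L (0.982), gngt1.L (0.981) and tmem98.L (0.981). Closest to alas2.S were abca4.L (0.985), apoa4.S (0.983), gnat1.S (0.982), MGC116491 (0.979) and krt62.L (0.976). For alas1.S the values were 0.967 for twf2.L, 0.963 for hspb6.L, 0.956 for smarca2.L, 0.955 for aga.L and 0.954 for sesn3.L. The other members stood at 0.774 (a probe set of hbg2.L) to 0.994 (hba4.S) with hba3.L, apart from the alas1 copies at 0.179 (L) and 0.651 (S). The correlations are a description without a test.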

How the data were processed

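Biotin-labelled total RNA was hybridised to the arrays in a single labelling cycle, per the labels' protocols. The deposited intensities are on a linear scale. The authors used MAS5 to make them, as the submitters' processing notes say, with a version not given in the sources used here. All arrays share the same 2% trimmed mean in that table, and no further normalization was applied. Detection calls were not used here, and 0 columns were left out.

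Intensities were taken to log2 and the 96 control probe sets were set aside. A filter at the 50th percentile of each array, passed by both replicates of a stage, kept 23403 of 32539 probe sets. Symbols came from the platform annotation (15495 probe sets with 1 symbol, 279 with several, 16765 with none), and 15384 were found in RefSeq's gene table of assembly Xenopus_laevis_v10.1, among them 12 of the 12 gene copies described. That table served for names and gene order, since the files name no genome build. Sequences, promoters and proteins were not used here.

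A linear model with a mean per stage over all 30 arrays (15 residual degrees of freedom) was fitted with limma 3.58.1 in R 4.3.3, with trend and robust moderation and Benjamini-Hochberg adjustment over all tested probe sets at 0.05. Every adjusted p comes from limma. The pooled spread assumes that the stages vary alike. The contrasts were an F test, 14 neighbouring steps and 5 intervals (stages 2 to 5, 5 to 11, 11 to 21, 21 to 31 and 31 to 48). In lists of genes, copies were joined and the tested probe set of highest mean stood for the gene. Named were all member probe sets, and of each list genes called between stages 21 and 31 or 31 and 48, at most 4 per list and interval by size of change whose brighter stage exceeded the median. The text gives a selection of these, and tf and clpx, jak2, tmem14c, hmox1 and slc4a1 with both intervals where the rule takes 1. Other genes, such as tal1 and those that were too dim, were added after their values were seen. For likeness, 5 genes each were named for the brightest probe set of the globins, of alas2 and of alas1. The members and lists were chosen with earlier results of these data known. The script was tested on simulated data.

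Replicate numbers were checked for pairing: deviations of same-numbered arrays correlated at -0.0594 to 0.0412 over 105 pairs of stages (0 above 0.1), so the numbers do not pair samples. Alternatives changed the scaling (quantile normalization, median centring, 12 poly-A control probe sets), the filter (none, or the 75th percentile), the logarithm (50 units added), the moderation (neither trend nor robust), the probe sets (ambiguous ones left out), the call (adjusted p under 0.01, or a change of at least 2-fold as well) and the model (replicate numbers as a block, only the stages compared, each array left out in turn). Python 3.11.15 with matplotlib 3.10.9 was used for the figures.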

Additional observations from a re-analysis of the deposited data

How the results depend on the processing

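Of the 55 changes of tested probe sets in the 5 intervals, 29 had neither stage above the median and are left out of these counts. Of the other 26, 1057 of 1084 settings kept direction and side of the threshold, among them 576 of 580 for globins, where the other 4 were the call of hbd.S between stages 31 and 48. The direction of alas1.S between stages 2 and 5, not called in any case, turned to -0.01 with quantile normalization (-0.0085), -0.02 with median centring (-0.016) and -0.13 without stage 5 replicate 2, in a range of -0.13 to 0.26 over the arrays left out. Between stages 11 and 21 alas1.L and alas1.S turned to 0.39 and 0.47 with poly-A scaling. Without stage 21 replicate 2 the call of alas1.S in that interval was lost (adjusted p = 0.054). For alas1.S minus alas1.L a call appeared between stages 2 and 5 without stage 5 replicate 2 (-0.41, adjusted p = 0.041), and between stages 31 and 48 with quantile normalization (-0.37, adjusted p = 0.0253).

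Without probe sets ending in _s_at, _x_at and _a_at 7 members were left by construction, and the F test called 7, with 2, 6 and 7 higher between stages 11 and 21, 21 and 31, and 31 and 48. Between stages 2 and 5 the 1 call higher became 0 with quantile normalization, median centring, poly-A scaling, an adjusted p of 0.01 and the 2-fold threshold, and 1 was lower with median centring. Between stages 5 and 11 calls higher were 0 with poly-A scaling and the 2-fold threshold and 2 without the filter, and calls lower were 1 with signal plus 50, without the ambiguous probe sets, at 0.01, with the 2-fold threshold and with the stages alone. The 2 calls lower between stages 11 and 21 became 0 with poly-A scaling and the 2-fold threshold. Step calls higher were 61 with signal plus 50, 18 at 0.01, 17 with the 2-fold threshold and 57 with the stages alone, and step calls lower were 4 at 0.01 and 3 with the 2-fold threshold. The cause of the other changes was not tested.

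Leaving out 1 array at a time gave 11 in the F test, 0 to 1 higher and 0 to 1 lower between stages 2 and 5, 1 higher and 1 to 2 lower between 5 and 11, 3 to 4 higher and 1 to 2 lower between 11 and 21, 9 to 10 higher between 21 and 31, 10 to 11 higher between 31 and 48, 0 lower in these last intervals, and 26 to 40 higher and 6 to 9 lower over the steps. With the replicate number as a block the F test called 11, the intervals gave 1, 1, 4, 10 and 11 higher and 0, 2, 2, 0 and 0 lower, and the steps 33 higher and 7 lower, so the block changed no other count. No pairing by number was seen in the values. Of 110 counts over lists under 42 settings, 292 of 4620 moved by over 1.5 times. Here too most settings left out 1 array, mostly of a stage not compared. Signals under the array median limit all early values of the globins and alas2.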

Other observations

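A globin gene outside the symbols used above, hba-l5.L, had a course of its own, and was singled out after its values were seen. Its probe set ending A1_at had 3646 and 3418 units at stage 2, 1840 and 1804 at stage 5, 1302 and 1138 at stage 9, 1286 and 978 at stage 11 and 1192 and 990 at stage 13. It had 649 and 665 units at stage 17, 733 and 763 at stage 19, 622 and 537 at stage 21, 854 and 799 at stage 23 and 770 and 533 at stage 26. Then it had 1734 and 1350 units at stage 28, 3248 and 2221 at stage 31, 10862 and 10577 at stage 37-38, 15113 and 15856 at stage 43 and 8599 and 10443 at stage 48. It was thus read in the cleaving embryo, where the tested globins were dark, and was lower at stage 48 than at stage 43, where they were not. A second probe set of the gene, ending A2_at, had 557 and 690 units at stage 2, at most 82.7 at later stages and at most 21.3 from stage 17 on, so the late course of the first was not seen in the second. Its tests are not given, since it was singled out for its values.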
